A study of Mus musculus with 6 samples.

Results

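The genes described are Nnt, which encodes the nicotinamide nucleotide transhydrogenase of the inner mitochondrial membrane, and 9 further genes of mitochondrial redox defence: Sod2, Prdx3, Prdx5, Txn2, Txnrd2, Glrx2, Gpx1, Gpx4 and Idh2. They were taken by symbol from the table of 55401 Ensembl gene IDs. The 10 symbols matched 11 IDs, because Nnt has 2, and all 11 IDs were among the 19197 tested. Nnt was selected on its measured counts, since one of its IDs was present in some libraries and absent from others, so its levels are given as a description, with no test. The other 9 were chosen for their function, with earlier results of these data known.

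Whole mouse kidney RNA was read by RNA-seq in 3 control libraries and in 3 libraries of diabetic kidney disease (DKD), the kidney damage that follows long-standing diabetes. The labels give each library only its tissue, its group and a replicate number. They name no strain, allele, way of inducing diabetes, age or sex. Nor do they say that each library is a separate animal, so p-values set group differences against a spread between libraries that may be technical. Whole kidney mixes many cell types, and fewer cells of a type and less RNA per cell cannot be told apart.

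Superoxide leaks from the respiratory chain into the mitochondrial matrix, where superoxide dismutase turns it into hydrogen peroxide. Peroxiredoxins and glutathione peroxidases then reduce the peroxide, and thioredoxin and glutathione restore them at the cost of NADPH. NNT makes that NADPH from NADH by using the proton gradient, and isocitrate dehydrogenase makes it from isocitrate. In the kidney the demand is known to be greatest in the proximal tubule, which is packed with mitochondria. The C57BL/6J mouse, from which the reference genome was read, is known for a deletion of several internal exons of Nnt, while C57BL/6N and many other strains carry the intact gene.

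Library totals ran from 64816622 to 77417638 counts, and levels are in CPM, counts scaled to library size with TMM factors. The libraries did not fall cleanly into their groups. DKD replicate 1 held hepatocyte transcripts. Ahsg, a liver plasma protein, was at 376 CPM there and had no count in any other library. The summed level of 10 hepatocyte markers was 3964 CPM there, with Alb alone at 2321 CPM, against 385 to 634 CPM elsewhere. Apob and Ttr, at 248 and 180 CPM in DKD replicate 1, were the only ones of the 10 not highest there. The summed level of 12 proximal tubule markers was 39587 to 46324 CPM in the control libraries, 39789 CPM in DKD replicate 1, and 22531 and 17903 CPM in DKD replicates 2 and 3. Kap alone held much of that sum, at 26109, 19385 and 19639 CPM in control and at 22406, 11264 and 6920 CPM in DKD replicates 1 to 3. For 6 of the 12 markers every DKD library, replicate 1 included, was below every control, as for 11.5% of all genes tested. The Y-linked genes Ddx3y, Kdm5d, Uty and Eif2s3y were present in all 6 libraries, and Xist, the RNA of the silenced X chromosome in females, reached at most 0.545 CPM.

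The IDs of Nnt are gene models laid over the same exons. In the GENCODE M21 annotation (build GRCm38, not the build of the files, so no coordinates are printed) ENSMUSG00000116207 is 1 transcript of 17 exons, and all of its 3339 exonic bases also lie in exons of ENSMUSG00000025453, which has 5 transcripts and 7037 exonic bases. The shared bases are 47.4% of that longer model. The longest coding sequences of the 2 IDs are identical, and each has 2505 bases, or 835 codons. The first 60 bases are shown because reads from them cannot tell the IDs apart, with the start codon in capitals.
Nnt, both IDs: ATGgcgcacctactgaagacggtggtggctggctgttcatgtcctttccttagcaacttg

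The share of Nnt counts given to the nested model, ENSMUSG00000116207, was all or nothing. It had 9501 counts in control replicate 1, 8936 in DKD replicate 2 and 10500 in DKD replicate 3. It had no count in control replicates 2 and 3 or in DKD replicate 1. The 3 libraries with counts therefore came from both groups, and so did the 3 without. In those with counts, the nested model held 90.5% of the Nnt counts in control replicate 1 (95% exact interval 90.0% to 91.1%), 87.2% in DKD replicate 2 (86.5% to 87.8%) and 96.2% in DKD replicate 3 (95.8% to 96.5%). Where it had no count, 3 counts would be a share of 0.0200% in control replicate 2, 0.0175% in control replicate 3 and 0.0169% in DKD replicate 1, which is the limit taken for a count of 0. These intervals and limits cover counting error only.

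The other model ran the opposite way. ENSMUSG00000025453 was at 227 and 241 CPM in control replicates 2 and 3 and 233 CPM in DKD replicate 1, but only 16.7 CPM were found in control replicate 1, 17.1 CPM in DKD replicate 2 and 4.93 CPM in DKD replicate 3. Read alone, this ID had a DKD mean 0.527 times the control mean, while the nested ID had a DKD mean of 79.9 CPM above a control mean of 53.3 CPM. The direction of a group difference in Nnt thus depended on which ID was read, and neither ratio is a level of the gene. Single libraries also decided both: the nested ID's ratio was 0.997 without control replicate 2 or control replicate 3, and the other ID's was 0.0676 without DKD replicate 1.

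**Figure D1:**
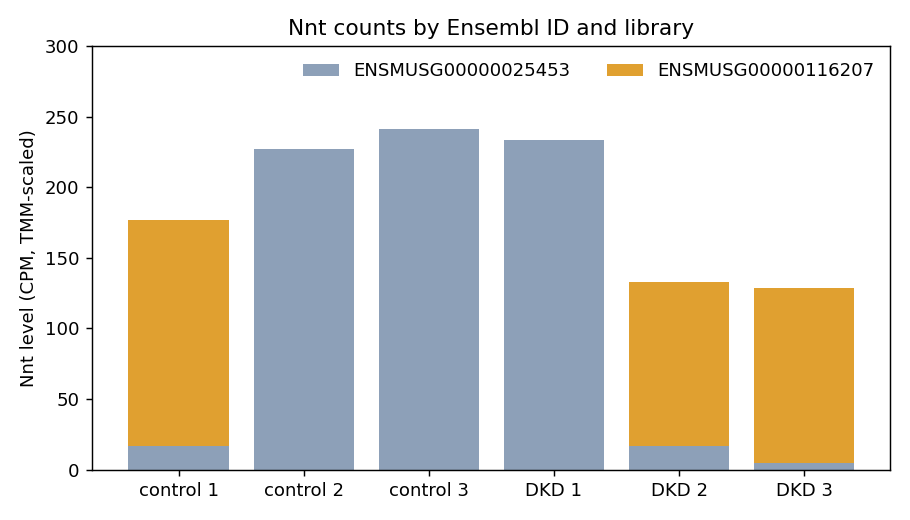
Stacked bars give the level of each Nnt gene ID (CPM, y axis) in each of the 6 libraries (x axis). The nested ID, ENSMUSG00000116207, is seen only in control replicate 1 and DKD replicates 2 and 3, whose bars are also the shortest, at 129 to 177 CPM in total.

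With both IDs summed, Nnt was at 177, 227 and 241 CPM in control replicates 1 to 3 and at 233, 133 and 129 CPM in DKD replicates 1 to 3. The 3 libraries with the nested model had the lowest sums, and the groups overlapped. The mean of the sum was 215 ± 34.0 CPM for control and 165 ± 59.3 CPM for DKD (SD, n = 3). Their ratio was 0.768, and it was 0.605 without DKD replicate 1 and 0.852 without DKD replicate 3. Reads over exons shared by both models can be given to either in ways that the table does not show, so the sum is used for the gene. It covers only the exons of these models. Reads from Nnt exons missing from the reference genome would not be counted in it, and their part was not tested.

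Other symbols with more than 1 ID rarely shifted their counts between IDs this far. Of 14 such symbols with at least 1000 counts in every library, Nnt was the only one whose split moved by over 50 percentage points between libraries. Its move was 96.2 points, and since Nnt was selected for this pattern, its first place follows from the choice. The next was Ptp4a1, a tyrosine phosphatase gene, with 41.2 points, named here after its value was seen. An ID that came and went was not particular to Nnt, however. ENSMUSG00000116048, an ID of Sept2, was at 9.89 CPM in control replicate 3 and at 8.81 and 9.57 CPM in DKD replicates 2 and 3. It was at 0 CPM in control replicates 1 and 2 and in DKD replicate 1, though the split of Sept2 moved by only 11.6 points.

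The genes beside Nnt on its chromosome were read next, among the 5 nearest named protein-coding genes on each side in the reference gene order. Tmem267, a gene of a membrane protein and the third on one side, split the libraries in the same way: it was at 33.4 CPM in control replicate 1, 22.1 CPM in DKD replicate 2 and 24.1 CPM in DKD replicate 3. Control replicates 2 and 3 had 3.30 and 3.98 CPM and DKD replicate 1 had 2.22 CPM. The first 3 values lay far above the others. 4833420G17Rik, next to it, was at 16.6, 33.9 and 30.9 CPM in the libraries with the nested Nnt model and at 10.8 to 11.5 CPM in the others. Hmgcs1, which makes the precursor of cholesterol and ketone bodies in the cytosol, was at 355, 409 and 421 CPM in those libraries and at 210 to 258 CPM in the others.

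Paip1, Mrps30, Ccl28 and Fgf10 did not share the split. Emb and Parp8 shared it in rank, with control replicate 1 only just above the libraries without the nested model. Paip1, which binds the poly(A)-binding protein and lies directly beside Nnt, was at 60.2 to 66.7 CPM in all 6 libraries. Emb, the gene of the cell adhesion protein embigin, was at 20.3 CPM in control replicate 1. It was at 38.5 and 37.4 CPM in DKD replicates 2 and 3 and at 16.6 to 18.3 CPM in the other libraries. Mrps30, of the mitochondrial ribosome, was lower in every DKD library (26.9 to 29.2 CPM) than in every control library (35.3 to 41.9 CPM), with an adjusted p of 0.114 in the edgeR test. Ccl28, a chemokine of mucosal surfaces, was at 12.3, 26.1 and 2.05 CPM in control and at 4.36, 20.3 and 15.8 CPM in DKD replicates 1 to 3. Parp8 overlapped between groups (15.7 to 34.5 CPM over the libraries), and Fgf10 was below 1 CPM.

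**Figure D2:**
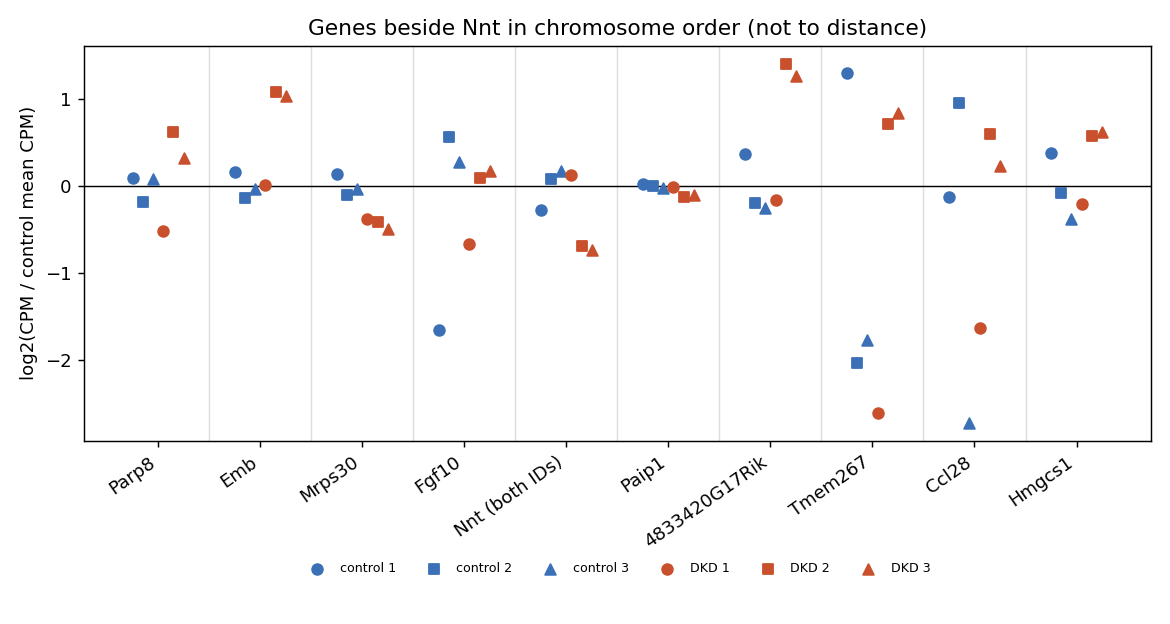
The log2 ratio of CPM to the control mean (y axis) is shown for Nnt, with both IDs summed, and for the tested genes around it in chromosome order (x axis, not to distance), 1 point per library. At Tmem267, control replicate 1 and DKD replicates 2 and 3 sit above the line and the other 3 libraries well below it, while at Paip1 all 6 lie together.

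Genes whose pattern over the 6 libraries was most like that of Nnt were ranked by the root mean square distance between centred log2 CPM values, over 14668 genes. For the summed level the near genes included Btbd9 (distance 0.0428), B4galnt3 (0.0493) and Far1 (0.0586). Far1, which reduces fatty acyl-CoA to fatty alcohol in peroxisomes, was at 272, 323 and 329 CPM in control and at 320, 188 and 186 CPM in DKD replicates 1 to 3. Sema4d, Dbt, Dleu2 and Cdo1 followed. For these 7 genes the lowest values were in DKD replicates 2 and 3, with control replicate 1 between those and the other libraries.

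For the nested model alone the distances were larger, since it had no count in 3 libraries. The nearest, Gm47283, was at a distance of 3.54, and Tmem267 ranked 22 with 4.58. Among the 8 nearest, 2610507I01Rik was at 2.66, 7.18 and 5.35 CPM in the libraries with the nested model and at 0.0606 to 0.250 CPM in the others, and B3gnt3, an enzyme that extends sugar chains, was at 2.14, 6.87 and 7.62 CPM against 0.236 to 0.451 CPM. Both genes split the libraries as the nested model did, which follows from ranking genes by that pattern. Others of the 8 did not. Tlr12, a receptor of innate immunity, was at 12.8 CPM in DKD replicate 1. AI506816 was at 5.71 CPM there, beside 5.79 CPM in control replicate 1. Gm47283 was at only 0.387 CPM in control replicate 1, against 6.27 and 39.0 CPM in DKD replicates 2 and 3. For ENSMUSG00000025453 the nearest was Pianp (distance 0.970), at 2.76, 7.80 and 7.15 CPM in control and 9.98, 0.740 and 0.648 CPM in DKD replicates 1 to 3, followed by Masp2, a protease of the lectin pathway of complement (0.983).

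Genes known to vary between inbred strains were read for the same libraries. H2-Ea-ps, the form of an MHC class II gene that is broken in C57BL/6 mice and intact in several other strains, was at 24.3, 72.4 and 88.3 CPM in control replicates 1 to 3. DKD replicate 1 had 28.8 CPM, DKD replicate 2 had 0.0519 CPM, and DKD replicate 3 had no count. Glo1, which detoxifies methylglyoxal and lies in a segment duplicated in some strains, was at 234, 308 and 300 CPM in control and at 289, 87.9 and 95.8 CPM in DKD replicates 1 to 3. For both genes DKD replicates 2 and 3 were lowest. Control replicate 1 was next, close to DKD replicate 1 for H2-Ea-ps and nearer to the other libraries than to DKD replicates 2 and 3 for Glo1, so neither gene split the libraries as Nnt did. These 2 were chosen after their values were seen. Of the 10 IDs tested in this list besides those of Nnt, 0 passed an adjusted p of 0.05 with edgeR, with 4 higher and 2 lower at an unadjusted p under 0.05, where 12.2% of all genes tested were higher and 7.05% lower. Alad, of heme synthesis, had the smallest adjusted p (0.112). It was at 82.0, 79.0 and 87.2 CPM in control and at 65.9, 61.2 and 55.0 CPM in DKD replicates 1 to 3. Eif2s3y, a Y-linked translation factor gene, was at 22.3 CPM in control replicate 1 and at 56.3 to 60.4 CPM in the other libraries. Whether the animals differed in strain was not tested.

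The comparison of DKD with control kidneys asked whether the other redox genes differed in the diseased kidney. All 9 had a lower fitted level in DKD (median log2 difference -0.26, beside 0.02 over all genes tested), and 0 of 9 passed an adjusted p of 0.05 with the quasi-likelihood test of edgeR. The same test called 0% of the genes tested. At an unadjusted p under 0.05 there were 2 of 9, Idh2 and Glrx2, both lower. At that level 19.2% of all genes tested differed in either direction and 7.05% were lower in DKD. DESeq2, limma-voom with sample quality weights, and edgeR without DKD replicate 1 each called 1 of the 9, Idh2, where they called 9.11%, 17.7% and 15.5% of the genes tested. None of the 9 was called by edgeR with no filter on low counts (0.0134% of genes called), without control replicate 1 (0.0348%) or without DKD replicate 3 (0.0051%).

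Idh2, the NADP-dependent isocitrate dehydrogenase of mitochondria, had the largest difference. It was at 528, 516 and 568 CPM in control and at 458, 387 and 351 CPM in DKD replicates 1 to 3. The groups did not overlap, and DKD replicate 1 was nearest to the controls. Its log2 difference came to -0.43 ± 0.13 (SE; adjusted p = 0.163 with edgeR). It was -0.55 without DKD replicate 1 (adjusted p = 0.0149 with edgeR), -0.44 with DESeq2 (adjusted p = 0.0207) and -0.50 with weighted limma-voom (adjusted p = 0.0161).

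Sod2, the manganese superoxide dismutase of the matrix, was at 365, 308 and 305 CPM in control and at 313, 242 and 252 CPM in DKD replicates 1 to 3. DKD replicate 1 lay among the controls while DKD replicates 2 and 3 lay below all of them. The fitted log2 difference came to -0.28 ± 0.14 (SE; adjusted p = 0.320 with edgeR).

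The peroxiredoxins remove hydrogen peroxide with a reactive cysteine. Prdx3, the matrix peroxiredoxin served by thioredoxin 2, was at 263, 206 and 202 CPM in control and at 219, 176 and 187 CPM in DKD replicates 1 to 3. Prdx5, found in mitochondria, peroxisomes and cytosol, was at 1280, 829 and 809 CPM in control and at 946, 694 and 659 CPM in DKD replicates 1 to 3. In both genes control replicate 1 was the highest library and DKD replicate 1 lay above the other 2 controls, so the groups overlapped. The log2 differences were -0.21 ± 0.14 for Prdx3 and -0.34 ± 0.23 for Prdx5 (SE; adjusted p = 0.458 and 0.436 with edgeR).

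The thioredoxin arm keeps those enzymes reduced. Txn2, mitochondrial thioredoxin, was at 186, 137 and 145 CPM in control and at 137, 131 and 124 CPM in DKD replicates 1 to 3. The groups parted by almost nothing, since control replicate 2 and DKD replicate 1 round to the same value, and the log2 difference came to -0.26 ± 0.13 (SE; adjusted p = 0.337 with edgeR). Txnrd2, the reductase that recharges thioredoxin 2 with NADPH, was at 29.0, 24.2 and 25.2 CPM in control and at 26.9, 22.3 and 24.1 CPM in DKD replicates 1 to 3. Its log2 difference of -0.10 ± 0.12 (SE; adjusted p = 0.668 with edgeR) was the smallest of the 9 and turned to 0.05 when libraries were scaled by their size alone. Glrx2, a glutaredoxin that works with glutathione, varied least among the controls of the 9 genes (coefficient of variation 3.36%): it was at 31.4, 32.5 and 33.6 CPM in control and at 29.3, 28.7 and 26.8 CPM in DKD replicates 1 to 3. The groups did not overlap, with a log2 difference of -0.20 ± 0.08 (SE; adjusted p = 0.255 with edgeR).

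The glutathione peroxidases came last. Gpx1, shared between cytosol and mitochondria, was at 1815, 1401 and 1428 CPM in control and at 1188, 1293 and 1318 CPM in DKD replicates 1 to 3. The groups did not overlap, and here DKD replicate 1 was the lowest library (log2 difference -0.29 ± 0.14, SE; adjusted p = 0.308 with edgeR). Gpx4, which reduces lipid peroxides within membranes and so guards against ferroptosis, was at 699, 431 and 406 CPM in control and at 447, 438 and 434 CPM in DKD replicates 1 to 3. All 3 DKD values lay between the lowest and the highest control. Its log2 difference of -0.22 ± 0.21 (SE; adjusted p = 0.595 with edgeR) turned to 0.07 without control replicate 1 (adjusted p = 0.742 with edgeR).

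Control replicate 1 was the highest library for 7 of the 9 genes, all but Glrx2 and Idh2, and the median log2 difference of the 9 was -0.11 without it. Leaving it out moved Prdx3 to -0.076, Prdx5 to -0.098, Txn2 to -0.11, Txnrd2 to -0.019 and Gpx1 to -0.16, and Sod2 less, to -0.19. Idh2 was at -0.44 and Glrx2 at -0.23 without it, no closer to 0 than with it. Leaving out DKD replicate 1 instead moved Prdx3 to -0.31, Prdx5 to -0.53 and Txnrd2 to -0.18, and Txnrd2 was at -0.039 without DKD replicate 2 and at -0.15 without control replicate 2. Gpx4 was at -0.33 without control replicate 2 and at -0.37 without control replicate 3. For 4 of the 9, Idh2, Gpx1, Txn2 and Glrx2, every DKD library was below every control. Of all genes tested, 25.4% had groups apart in either direction and 11.5% had DKD lower. Per kilobase of annotated exon, control levels were highest for Gpx1 (1074 ± 161 CPM per kb, SD, n = 3), followed by Prdx5 (455 ± 124), Gpx4 (297 ± 94.3), Idh2 (208 ± 10.6) and Prdx3 (151 ± 23.0). Txn2 (37.0 ± 6.30), Sod2 (32.6 ± 3.38) and summed Nnt (30.6 ± 4.83) came next on that scale, and Txnrd2 (5.94 ± 0.577) and Glrx2 (3.70 ± 0.124) were lowest. The control ranges overlapped between Prdx5 and Gpx4, and among Txn2, Sod2 and Nnt, so the order within those groups is not set by these libraries. Exon lengths are of all annotated exons of a gene together, which lowers the value of genes with long unused exons.

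**Figure D3:**
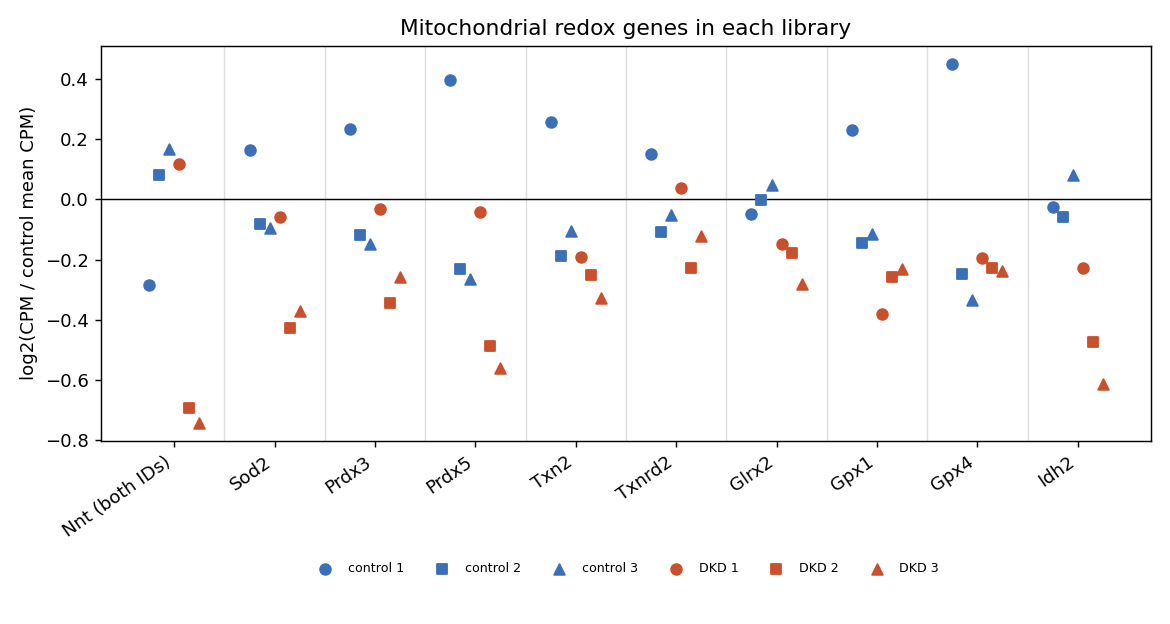
Each point is 1 library, as the log2 ratio of its CPM to the control mean (y axis), for Nnt with both IDs summed and the 9 other genes (x axis). Control replicate 1 is the top point for 7 of the 9 other genes but the lowest control for Nnt, and most DKD points lie below the line.

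Gpx1, Gpx4 and Txnrd2 share a feature that the choice of genes did not use: they are selenoproteins, in which an in-frame UGA codon is read as selenocysteine at the active site. None of the annotated coding sequences of the other 7 genes holds an in-frame TGA before its end. The stretches around that codon are shown, read from GENCODE M21 transcripts (GRCm38), with the selenocysteine codon in capitals. It is codon 47 of 201 in the Gpx1-201 form, codon 73 of 197 in Gpx4-202 and codon 526 of 527 in Txnrd2-203, next to the last. Some annotated coding sequences of Gpx1 and Txnrd2 hold no in-frame TGA, and its codon number differs between forms of Gpx4 and of Txnrd2.
Gpx1: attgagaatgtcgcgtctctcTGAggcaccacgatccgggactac
Gpx4: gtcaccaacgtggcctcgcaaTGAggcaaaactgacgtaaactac
Txnrd2: gagcctactgtgactggttgcTGAggc

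Genes that make selenoproteins were read beside them. Of 7, 6 had a lower fitted level in DKD (median log2 difference -0.25), and 0 passed with edgeR. At an unadjusted p under 0.05, 2 were lower, where 7.05% of all genes tested were lower. Over these and the further lists of mitochondrial, cytosolic and content genes, 73 genes in all, edgeR called 0 on all libraries. It called 22 when DKD replicate 1 was left out, 5 higher and 17 lower, where it called 15.5% of all genes tested. DESeq2 called 9, 2 higher and 7 lower, beside 9.11% of all genes, and limma-voom with weights called 24, 6 higher and 18 lower, beside 17.7%. Sephs2, which makes the selenium donor, was at 431, 410 and 394 CPM in control and at 359, 284 and 222 CPM in DKD replicates 1 to 3 (log2 difference -0.51 ± 0.18, SE; adjusted p = 0.193 with edgeR). Selenop, the selenium carrier of plasma, was at 3101, 2654 and 2509 CPM in control and at 2314, 2073 and 2094 CPM in DKD replicates 1 to 3 (-0.35 ± 0.13; adjusted p = 0.219 with edgeR). In both genes every DKD library was below every control. Sepsecs and Eefsec, which make and deliver the selenocysteine tRNA, overlapped between groups (-0.30 ± 0.13 and -0.17 ± 0.10; adjusted p = 0.274 and 0.399).

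Mitochondrial content genes, a list of import channels, respiratory subunits and regulators of biogenesis, had a median log2 difference of -0.30. All 15 that were found of 16 had a lower fitted level in DKD, with 0 past the threshold in edgeR and 5 lower at an unadjusted p under 0.05. Among all genes tested 7.05% were lower at that level, and 52.4% had a higher fitted level in DKD. Sdha, of succinate dehydrogenase, was at 932, 906 and 921 CPM in control and at 802, 709 and 688 CPM in DKD replicates 1 to 3 (-0.33 ± 0.11; adjusted p = 0.189 with edgeR). Tomm20 and Timm23, of the protein import machinery, and Ndufs1, of complex I, were also lower in every DKD library than in every control (-0.29 ± 0.11, -0.30 ± 0.11 and -0.31 ± 0.12; adjusted p = 0.220, 0.220 and 0.223). The summed level of this list was 4936, 4317 and 4311 CPM in control and 4209, 3541 and 3467 CPM in DKD replicates 1 to 3. It was highest in control replicate 1 and lowest in DKD replicates 2 and 3. The summed proximal tubule markers ran the same way, but Kap alone held much of that sum. Single markers differed in their highest library, which was control replicate 1 for Kap and Slc34a1, control replicate 2 for Hnf4a and control replicate 3 for Lrp2. The part of cell content in the redox values was not tested.

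Set against that sum, a ratio chosen after the data were seen, most of the difference between groups was no longer visible. Sod2 was at 7.20% ± 0.170 of the content sum in control and 7.18% ± 0.302 in DKD (SD, n = 3), Gpx1 at 34.1% ± 2.33 and 34.3% ± 5.27, and Prdx3 at 4.93% ± 0.346 and 5.19% ± 0.212. Txnrd2 alone of the 9 had groups that did not overlap on this scale, at 0.588%, 0.561% and 0.584% in control and 0.638%, 0.631% and 0.694% in DKD replicates 1 to 3, higher in DKD. Idh2 stayed lower on average, at 11.9% ± 1.25 and 10.7% ± 0.455, with groups that overlapped. Summed Nnt was at 3.58%, 3.76% and 3.71% in control replicate 1 and DKD replicates 2 and 3 and at 5.26%, 5.60% and 5.55% in control replicates 2 and 3 and DKD replicate 1. On this scale Nnt fell into 2 tight sets of libraries that crossed the groups.

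**Figure D4:**
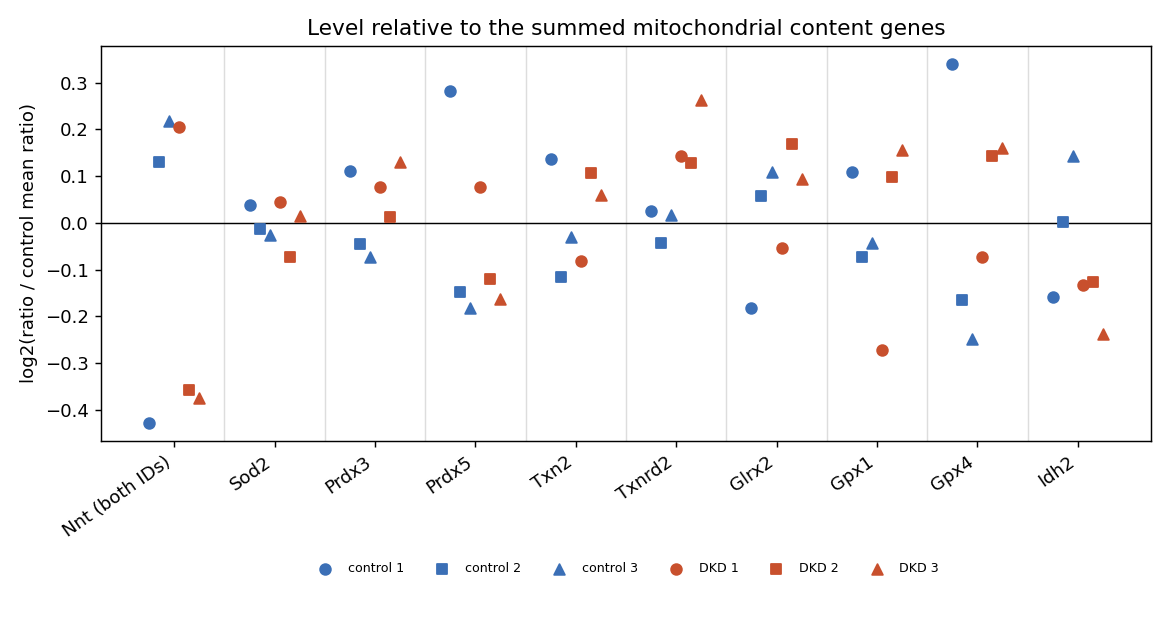
The log2 ratio of each gene's share of the summed mitochondrial content level to its control mean (y axis) is shown by gene (x axis), 1 point per library. Most genes scatter around the line in both groups, Txnrd2 has all DKD points above the controls, and Nnt has control replicate 1 level with DKD replicates 2 and 3.

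Other mitochondrial sources of NADPH and related enzymes did not move as one. Of 11 genes, 7 had a higher and 4 a lower fitted level in DKD (median log2 difference 0.10), and 0 passed with edgeR. At an unadjusted p under 0.05, 2 were higher, where 12.2% of all genes tested were higher. Me2, the NAD-dependent malic enzyme of mitochondria, was at 4.93, 3.88 and 4.12 CPM in control and at 5.33, 11.3 and 10.6 CPM in DKD replicates 1 to 3 (1.07 ± 0.30; adjusted p = 0.149 with edgeR). Aldh1l2, which makes NADPH from folate one-carbon units, was at 0.774, 0.788 and 1.21 CPM in control and at 1.27, 3.89 and 2.05 CPM in DKD replicates 1 to 3 (1.38 ± 0.46; adjusted p = 0.185 with edgeR). DKD replicates 2 and 3 carried most of both differences, though no group values overlapped. Mthfd2, also of the folate pathway, and Idh3g, of the NAD-dependent isocitrate dehydrogenase, overlapped (0.57 ± 0.27 and -0.25 ± 0.13; adjusted p = 0.298 and 0.354).

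Among 18 further mitochondrial redox genes, 16 had a lower and 2 a higher fitted level in DKD (median log2 difference -0.27), with 0 past the threshold in edgeR. At an unadjusted p under 0.05, 7 were lower and 2 higher, where 7.05% of all genes tested were lower and 12.2% higher. Ethe1, which oxidises persulfide in sulfide breakdown, was at 102, 79.9 and 90.2 CPM in control and at 59.4, 64.4 and 58.9 CPM in DKD replicates 1 to 3, and DKD replicate 1 was as low as the others (-0.57 ± 0.11; adjusted p = 0.103 with edgeR). Gstk1, a glutathione transferase of mitochondria and peroxisomes, and Msra, which repairs oxidised methionine, were lower in every DKD library (-0.48 ± 0.11 and -0.41 ± 0.11; adjusted p = 0.121 and 0.140). Ucp2, a carrier of the inner membrane that is also abundant in immune cells, went the other way, at 63.6, 42.7 and 36.4 CPM in control and 98.5, 196 and 267 CPM in DKD replicates 1 to 3 (1.98 ± 0.39; adjusted p = 0.107 with edgeR). The summed level of 9 macrophage and T cell markers was read beside it. That sum was 108, 103 and 117 CPM in control and 121, 166 and 197 CPM in DKD replicates 1 to 3. Csf1r alone held most of it in control and DKD replicate 1, and overlapped between groups. Csf1r was at 74.1, 62.3 and 72.7 CPM in control and at 89.1, 58.2 and 66.3 CPM in DKD replicates 1 to 3. Every other marker was higher in DKD replicates 2 and 3 than in any control. In DKD replicate 1, C1qa, C1qb, Ptprc and Cd3e were below every control, and Adgre1 lay among the controls. Cd68, Cd3d and Cd8a were above every control there. None of these markers was at 0 in any library, and their part in the Ucp2 values was not tested.

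The cytosolic and secreted counterparts were mixed. Of 22 tested of 23, 16 had a lower and 6 a higher fitted level in DKD (median log2 difference -0.13), and 0 passed with edgeR. At an unadjusted p under 0.05, 2 were higher and 1 lower, where 12.2% of all genes tested were higher and 7.05% lower. Idh1, the cytosolic sister of Idh2, was at 613, 765 and 758 CPM in control and at 505, 359 and 432 CPM in DKD replicates 1 to 3 (-0.72 ± 0.16; adjusted p = 0.114 with edgeR). Both NADP-dependent isocitrate dehydrogenases were thus lower in every DKD library than in every control. Gpx8, of the endoplasmic reticulum, was at 7.93, 6.38 and 5.70 CPM in control and at 8.35, 10.3 and 14.3 CPM in DKD replicates 1 to 3 (0.72 ± 0.24; adjusted p = 0.183 with edgeR). Gpx7 and Cat, the peroxisomal catalase, overlapped between groups (1.22 ± 0.47 and -0.28 ± 0.14; adjusted p = 0.227 and 0.322).

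**Figure D5:**
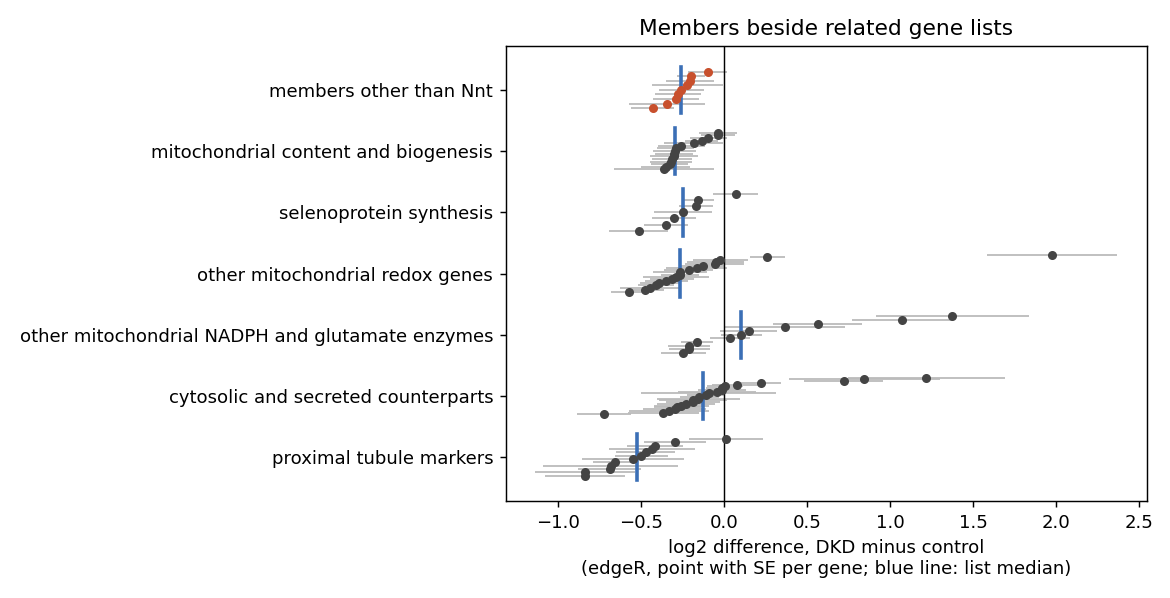
Log2 differences between DKD and control (x axis; points with SE from edgeR, 1 per gene; blue line, list median) are shown for the 9 genes, for the related lists and for proximal tubule markers (y axis). All 9 redox genes and all 15 content genes lie left of 0, close to each other. Proximal tubule markers have a median further left, at -0.52, though 1 of the 12, Gatm, lies just right of 0, at 0.01.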

How the data were processed

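The authors deposited one table of whole-number read counts per Ensembl gene ID, with no normalisation, for 6 libraries. GRCm39 is the build, and HISAT2, StringTie, fastp and edgeR the tools, per the submitters' processing notes. Tool versions, roles, annotation and strand setting were not stated in the labels. Symbols came from GENCODE M21 (GRCm38) and were found for 55141 of 55401 IDs. Counts were fitted in R 4.3.3 with edgeR 4.0.16 (quasi-likelihood, two-sided and robust, TMM, default filter) over 19197 genes, with Benjamini-Hochberg adjustment and a threshold of 0.05. Alternatives were other scalings and filters, a fit that was not robust, DESeq2 1.42.0, weighted limma-voom (limma 3.58.1), a replicate block and leaving out each library. Members and lists were chosen with earlier results of these data known. Named genes were the members, the 8 genes nearest to Nnt in pattern (log2 CPM, prior count 2, mean CPM of at least 1), 5 neighbours on each side, and up to 4 genes per list with the smallest p. Same-group libraries differed by more than sampling noise (chi-square per degree of freedom 32.0 to 280), so none was counted as a duplicate. Some genes that the rule names are not reported here.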

Additional observations from a re-analysis of the deposited data

How the results depend on the processing

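Over all genes, 0 of 19197 were called by edgeR, which left 3694 at an unadjusted p under 0.05. DESeq2 called 1749, weighted limma-voom 3401 and edgeR with no filter on low counts 4, and leaving out 1 library gave 0 to 3101, the most without DKD replicate 1. Of the 9 genes other than Nnt, DESeq2 called 1 and weighted limma-voom 1, and leaving out 1 library gave 0 to 1; in each case it was Idh2. The cause was not tested. Scaling by library size alone moved the median of all genes to 0.17 and turned Txnrd2 to 0.051, with 8 of 9 lower; without control replicate 1 Gpx4 turned to 0.069, within a range of -0.37 to 0.069 on leaving out 1 library. Each of the other 7 kept its direction in those 15 alternatives. Relative to the summed mitochondrial content, an alternative chosen after seeing the data, 6 of the 9 turned: Prdx3 to 0.074, Txn2 to 0.031, Txnrd2 to 0.18, Glrx2 to 0.073, Gpx1 to 0.0064 and Gpx4 to 0.081. The DKD to control ratio of Nnt was 0.0676 to 0.774 for ENSMUSG00000025453 and 0.997 to 2.23 for ENSMUSG00000116207 on leaving out 1 library, with no ratio for the latter without control replicate 1, where no control holds it, and 0.605 to 0.852 for the sum. With a replicate block edgeR called 0 genes and 0 of the 9. Same-numbered libraries deviated together only weakly (correlations 0.0336, 0.0227 and 0.0344), beside -0.0299 to 0.00065 for the other pairs. With 3 libraries per group this cannot tell whether the numbers pair them. Counts were deep for these genes, and depth limits only the share of the nested Nnt model where it was absent.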
